A study of Mus musculus with 468 samples.

Results

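Nnt, Glo1, Btbd9 and Cwc22 are 4 of the 23180 genes in a count table of adipose tissue from Diversity Outbred mice, 1 library a mouse. They were chosen by gene symbol because the inbred founders of these mice are known to differ at 3 loci by deletion or by extra copies. Here their levels were described over all libraries, next to the genes around them and the genes elsewhere that followed them. All 4 passed the filter on low counts (10 or more counts in 50% or more of all mice), as did 18380 genes in all.

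All libraries form 1 group: adipose tissue, taken per the study's methods from the visceral gonadal fat pad, of mice of both sexes fed a high-fat, high-sugar diet labelled as 45 percent fat. Diversity Outbred mice descend from 8 inbred strains, and each animal is a unique mixture of their alleles. The labels give each library a mouse number and a library number, but neither sex, age nor generation, and genotypes were not used here, so a step in expression is described as a step and not as an allele. Every mouse gave 1 library, there was no second diet, and fewer cells of a type cannot be told apart from less RNA per cell.

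Nnt encodes the nicotinamide nucleotide transhydrogenase of the inner mitochondrial membrane, which uses the proton gradient to make NADPH for the removal of peroxides; the founder C57BL/6J, from which the reference genome was assembled, carries a deletion of several of its exons. Glo1 encodes glyoxalase 1, which with glutathione clears methylglyoxal, a reactive by-product of glycolysis, and it lies in a segment that some inbred strains carry duplicated. Btbd9, its neighbour on the same strand, encodes a BTB-domain protein that acts as an adaptor for Cullin 3 ubiquitin ligases. Cwc22 encodes a spliceosome protein that loads the exon junction complex onto RNA, and it lies in a repeat unit, R2d, of which the founder WSB/EiJ carries many extra copies at a second, more distal site of chromosome 2 known for meiotic drive.

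On GRCm38, Nnt spans chromosome 13 from 119335448 to 119408997, Glo1 chromosome 17 from 30584936 to 30626871, Btbd9 chromosome 17 from 30215524 to 30576488, and Cwc22 chromosome 2 from 77881159 to 77946375. All 4 lie on the minus strand, and Glo1 and Btbd9 are 8.45 kb apart. The reference annotation holds a second gene named Nnt that is not used here and shares 3309 of the 7019 sequences of 31 bases (31-mers) in the transcripts of Nnt, so reads may have been divided between them.

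The pair of sequences below is shown because Cwc22 shares coding sequence with a second gene, so some reads of the pair may be hard to tell apart. The gene Gm13697, on chromosome 2 from 83984743 to 83987235 on the plus strand, is annotated as a single exon, whereas the Cwc22 transcript compared with it has 21 exons. Over 2474 aligned coding bases the pair differed at 39, an identity of 98.42%. The 100 bases printed here, of those aligned within an exon the stretch with the most differences, read 5′ to 3′ on each gene's own strand, with the 8 differing bases in capitals (Cwc22 at chr2:77929375-77929474, minus strand, and Gm13697 at chr2:83984973-83985072, plus strand, GRCm38).
Cwc22: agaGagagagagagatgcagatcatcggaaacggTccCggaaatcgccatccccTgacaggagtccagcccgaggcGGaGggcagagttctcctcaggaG
Gm13697: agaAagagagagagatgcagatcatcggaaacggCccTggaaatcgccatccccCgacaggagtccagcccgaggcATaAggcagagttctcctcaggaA
Gm13697 shared 1547 of the 6921 31-mers of Cwc22. Of the 23180 genes in the table, 3 shared any (0.0129%), the others being Hdx and Gm7340.

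Total expected counts ran from 35298813 to 137760410 per library, with a median of 82043357, so that the lowest count of any member in a library was 682.5 for Cwc22 and its counting error was small beside the spread between mice. Levels are given in CPM, a gene's counts in proportion to the library's total as scaled by the trimmed mean of M values. The sum of 5 adipocyte markers (Adipoq, Plin1, Cidec, Lipe and Fabp4) lay between 7143 and 24864 CPM with a median of 17143 CPM, and none of the 5 was at 0 in any library. The sum of 5 macrophage markers had a median of 578.1 CPM. Some libraries also held transcripts of other tissues, up to 4972 CPM for 4 skeletal muscle markers and up to 5660 CPM for 4 liver markers.

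Nnt varied about as much as a typical gene. Its level was 38.7 ± 11.04 CPM (mean ± SD over all libraries), from 12.1 through a median of 38.4 to 73.1 CPM. In 9 libraries it was under 50% of the median and in 22 over 1.5 times the median. No library was under 25% of the median, and none was over 2 times the median. Its density over the libraries had 1 mode. Its biological coefficient of variation was 0.291, and 49.6% of all genes had a higher one.

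Glo1 was the most abundant member. Its level was 107.02 ± 43.4 CPM (SD), from 42.4 through 98.9 to 246.1 CPM, with 84 libraries over 1.5 times and 15 over 2 times the median. At the rule used for all genes (a valley at most 0.5 of the lower peak beside it) the density had 1 mode. With the limit at 0.9 it had 3, and a Gaussian mixture chosen by the Bayesian information criterion also had 3. Such findings were common, since 2357 of 18380 genes had more than 1 mode at the looser limit and 10599 under the mixture, Nnt and Btbd9 among the latter with 2 each. The looser limit put 33.97% of the libraries around a peak at 64.7 CPM, 29.7% around 99.8 CPM and 36.3% around 138.4 CPM, so that the upper peaks stood at 1.54 and 2.14 times the lowest. The valleys between them were shallow, at 0.686 and 0.775 of the lower adjoining peak, and libraries filled them without a gap.

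Btbd9 had the narrowest range of the 4. Its level was 27.03 ± 5.25 CPM (SD), from 15.9 through 26.2 to 43.4 CPM, with no library under 50% of the median, 13 over 1.5 times and none over 2 times the median. Its density had 1 mode, and its biological coefficient of variation of 0.187 was below that of 68.3% of all genes.

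Cwc22 fell into separate levels. Its mean was 70.2 ± 170.5 CPM (SD), which describes few of the libraries, since the median was 23.2 CPM and the range ran from 17.0 to 952 CPM. The density had 3 modes. The lowest held 92.5% of the libraries, between 17.0 and 43.7 CPM with a median of 22.98 CPM, the middle 15 libraries between 303.1 and 599.9 CPM with a median of 554.9 CPM, and the highest 20 libraries between 641.9 and 952 CPM with a median of 774 CPM. No library lay between 43.7 and 303.1 CPM. This gap, of 2.79 on the log2 scale, was the 33rd widest among 18380 genes when at least 10 libraries had to stand on either side, in a ranking that the Y-linked genes Ddx3y, Eif2s3y, Kdm5d and Uty led. The valley between the upper modes was 0.421 of the lower peak, and a bandwidth 1.5 times wider merged them, leaving 2. More than 1 mode was found for 1165 of 18380 genes (6.34%), so 1 of 4 members is a count too small to set against it.

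**Figure D1:**
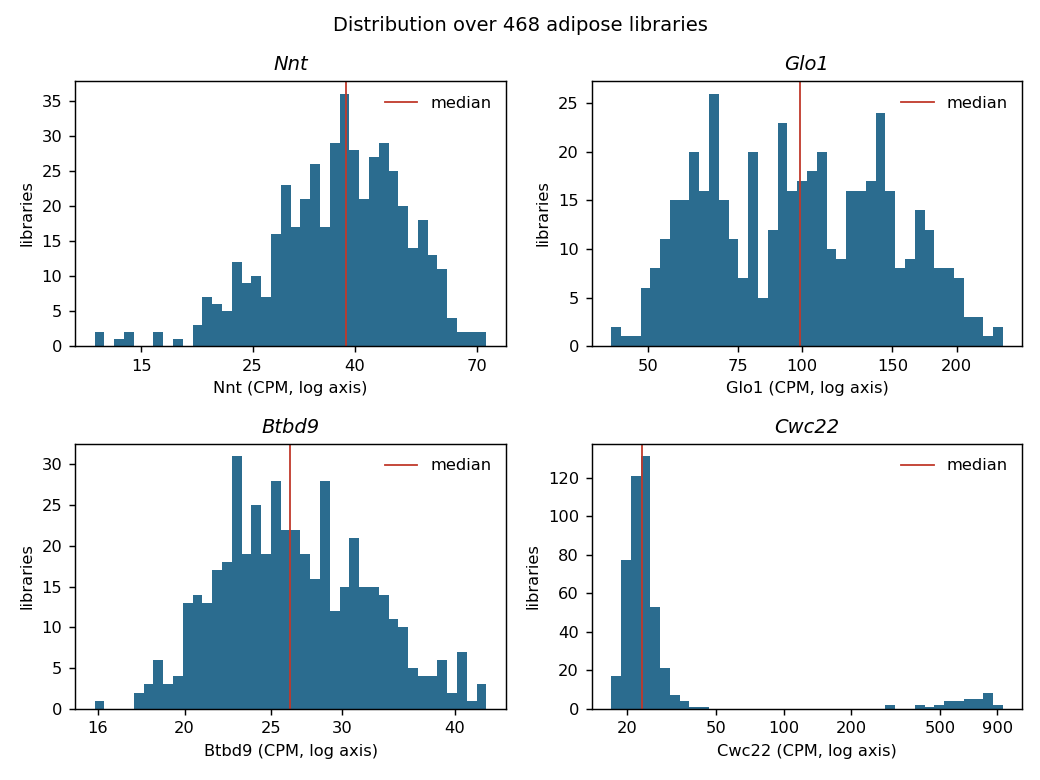
Histograms of the level of each member in CPM (log axis) over all libraries, with the median as a red line. Nnt and Btbd9 show a single hump, Glo1 a broad shape with shallow dips, and Cwc22 a narrow peak near 22.98 CPM with 35 libraries between 303.1 and 952 CPM.

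The 35 libraries with Cwc22 above 73.8 CPM, the lowest point between the lowest and middle modes, were not spread evenly over the mouse numbers. When the mice were put in order of number in 5 blocks, they made up 11 of 93 libraries (11.8%, exact binomial 95% interval 6.05 to 20.2%), 13 of 94 (13.8%, 7.57 to 22.5%), 9 of 93 (9.68%, 4.52 to 17.6%), 2 of 94 (2.13%, 0.259 to 7.48%) and 0 of 94, which allows a share of up to 3.85%. The share fell by 3.47 percentage points per 100 mouse numbers (two-sided permutation test, p = 1e-05, the smallest that 100000 permutations can give). Over library numbers the slope was -0.145 percentage points per 100 (p = 0.868). The block medians of Cwc22, which the upper libraries barely touch, lay between 22.4 and 24.3 CPM.

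In the fit across all genes, 2261 of 18380 (12.3%) changed with mouse number, 874 rising and 1387 falling. Cwc22 was the 1 member among them and fell by 0.50 ± 0.06 (SE) on the log2 scale per 100 mouse numbers (adjusted p = 2.47e-14, edgeR's quasi-likelihood test with Benjamini-Hochberg adjustment). With limma on log2 CPM, which weights the upper libraries less, it fell by 0.17 (adjusted p = 0.00054). The slopes of Nnt (-0.014 ± 0.013, adjusted p = 0.545), Glo1 (-0.010 ± 0.017, adjusted p = 0.759) and Btbd9 (0.0019 ± 0.0082, adjusted p = 0.917) did not pass the test. In the 5 blocks the median of Nnt lay between 37.5 and 39.7 CPM, that of Glo1 between 92.1 and 106.2 CPM and that of Btbd9 between 25.03 and 27.8 CPM. Which mouse numbers belong to which generation or shipment is not in the labels, so those cannot be told apart from the number itself.

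**Figure D2:**
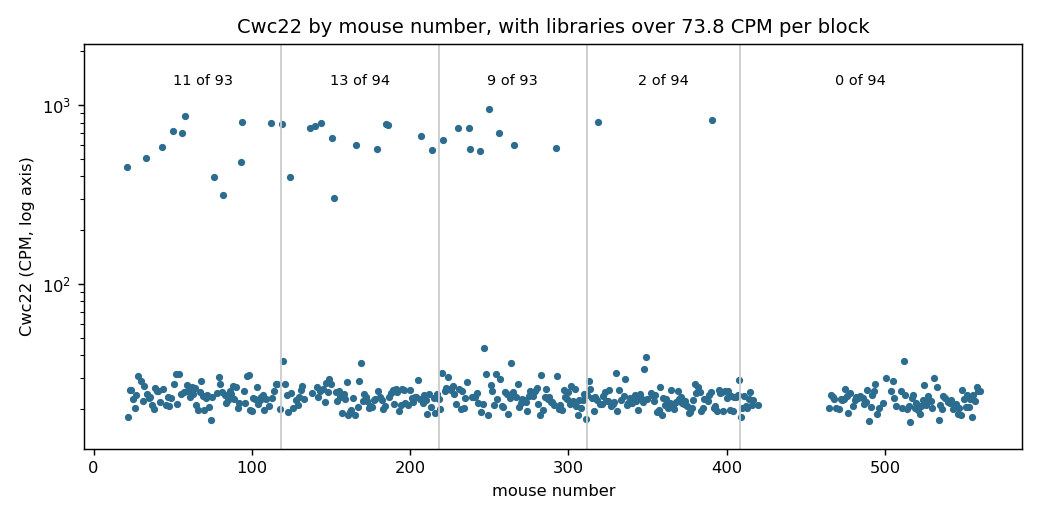
Level of Cwc22 in CPM (log axis) against mouse number, 1 point per library. Grey lines part 5 blocks of mouse numbers, and the text above each gives how many of its libraries lay above 73.8 CPM, from 13 of 94 in the second block to 0 of 94 in the last.

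Glo1 and Btbd9 moved together. Pearson's r was 0.71 and Spearman's rho 0.70 over all libraries (permutation p = 1e-05 for each, the smallest possible, and 4.17e-05 after adjustment over 75 pairs of a member and a neighbour). Without the 2 libraries farthest from the median of Glo1, r was 0.70. It lay between 0.63 and 0.77 within the 5 blocks of mouse numbers and between 0.61 and 0.76 within 5 blocks of library numbers. Their transcripts shared 45 31-mers, of 12156 in Glo1 and 18352 in Btbd9. By contrast, Nnt had r = 0.0070 with Glo1 (adjusted p = 0.937) and r = 0.017 with Btbd9 (adjusted p = 0.849), in a family of 84 permutation tests.

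To find what else went with each member, every gene was regressed on the member's log2 CPM, with mouse number, library number, Xist and 4 Y-linked genes in the fit, and slopes were given as log2 change per standard deviation (SD) of the member. So many genes followed Nnt and Glo1 in this fit that a call says little by itself: 9948 of 18379 genes (54.1%) for Nnt, 6842 (37.2%) for Glo1, 1097 (5.97%) for Btbd9 and 1.1% for Cwc22. A second fit therefore also held the first 10 principal components of genes outside the member's chromosome, which take up variation that many genes share. It called 0.784% of the genes for Nnt, 71 for Glo1 (0.386%), 90 for Btbd9 (0.49%) and 29 for Cwc22 (0.158%). Slopes are from the first fit unless the components are named. The shares for the last 2 also moved with other settings: for Btbd9 to 0.582% with limma on log2 CPM and 36.4% without Xist and the Y-linked genes, and for Cwc22 to 0.43% with limma and 53.99% with normal scores of Cwc22.

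Among the genes within 1 Mb of Glo1, 20 were tested and 13 passed (8 rising, 5 falling), beside 37.2% of all genes. With the principal components 7 passed, beside 0.386% of all genes. Btbd9 rose by 0.20 ± 0.0082 per SD of Glo1 (adjusted p = 5.25e-80), and by 0.23 with the components. Gm9874, a predicted gene that lies inside Btbd9 on the opposite strand, rose by 0.48 ± 0.042 (adjusted p = 6.38e-23) and by 0.59 with the components. It was low, from 0 through 0.247 to 1.53 CPM, and shared 23 31-mers with Glo1 and 11 with Btbd9. Dnah8, an axonemal dynein heavy chain gene whose start overlaps Glo1 on the opposite strand, rose by 0.39 ± 0.059 (adjusted p = 1.30e-08) and by 0.22 with the components. Its level ran from 0.641 through 4.52 to 875 CPM, and its relation with Glo1 was loose (r = 0.21, rho = 0.20, permutation p = 1e-05 for each, adjusted p = 4.17e-05). Glp1r, the receptor for glucagon-like peptide 1, lies 274.9 kb from Glo1 and was below the filter on low counts, so it was not tested.

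Further from Glo1, Zfand3, at 374.1 kb, rose by 0.055 ± 0.0083 (adjusted p = 1.08e-08). Ubash3a, a regulator of T cell receptor signalling, fell by 0.42 ± 0.056 (adjusted p = 2.48e-10), and Slc37a1, a sugar-phosphate transporter gene, fell by 0.26 ± 0.035 (adjusted p = 1.38e-10). The 3 kept their direction and passed with the components, with slopes of 0.038, -0.29 and -0.14, as did Wdr4 (0.031, and 0.030 with them). Mdga1 (-0.18), Ndufv3 (0.085), Ccdc167 (-0.050), Rnf8 (0.037), Cmtr1 (0.026) and Gm28043 (-0.017) passed in the first fit only.

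Around Btbd9, 27 genes were tested within 1 Mb and 7 passed in each fit, 5 of them in both. Of all genes, 5.97% passed in the first fit and 0.49% with the components. Dnah8 rose by 0.58 ± 0.051 (adjusted p = 1.56e-22), Glo1 by 0.43 ± 0.018 (adjusted p = 1.34e-79) and Gm9874 by 0.43 ± 0.043 (adjusted p = 3.16e-17). With the components these slopes were 0.22, 0.47 and 0.44. Among the other calls of the first fit, Rsph1, a radial spoke gene of cilia, had a slope of 0.27 that turned to -0.090 with the components (adjusted p = 0.497). Ubash3a had a slope of -0.20, Pim1 -0.10 and Wdr4 0.037. Slc37a1 (-0.14, adjusted p = 0.00012) and Mtch1 (0.025, adjusted p = 0.0013) passed with the components only. The calls of Rsph1, Ubash3a and Pim1 were lost with limma on log2 CPM (adjusted p = 0.906, 0.159 and 0.153).

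**Figure D3:**
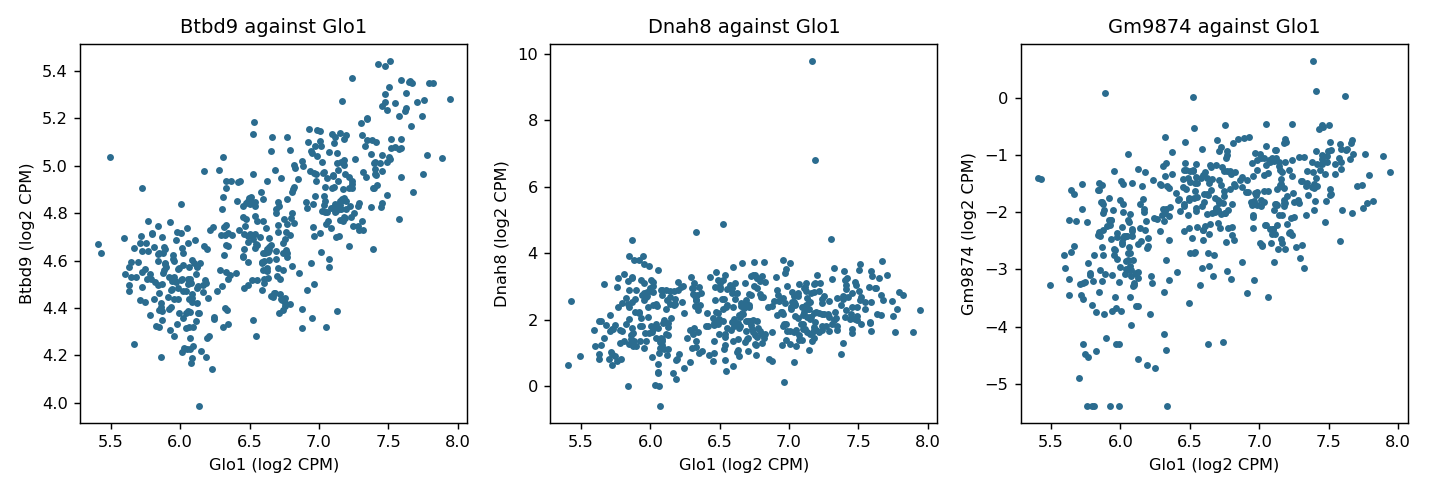
Btbd9, Dnah8 and Gm9874 against Glo1, each in log2 CPM, 1 point per library. Btbd9 climbs with Glo1 along the whole range (r = 0.71), Gm9874 climbs with more scatter, and Dnah8 shows a loose slope with 2 libraries far above the rest.

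Beyond 1 Mb the calls for Glo1 thinned out with distance once the components were in the fit. They made up 7 of 20 genes within 1 Mb (35%), 22 of 160 between 1 and 4 Mb (13.8%), 24 genes farther along chromosome 17 (3.56%) and 18 of 17525 on other chromosomes (0.103%). Genes of those other chromosomes entered the components and genes of chromosome 17 did not, so the last share is not on like terms. For Btbd9 the same shares were 25.9, 13.2, 4.15 and 0.20%. The largest of these slopes was that of Gm8810, 5.44 Mb from Glo1, which rose by 1.07 (adjusted p = 2.00e-10) and ranged from 0 through 0.439 to 26.7 CPM. Daxx, which encodes a histone H3.3 chaperone 3.33 Mb from Btbd9, rose by 0.14 ± 0.019 per SD of Btbd9 in the first fit and by 0.12 in the second. Without the components the stretch of chromosome 17 that holds Glo1, between 30 and 31 Mb, had 4 of 4 genes called, beside 37.2% of all genes. Of the 1-Mb stretches with at least 5 genes tested, those with the highest shares had 5 of 6 genes called between 5 and 6 Mb, 7 of 10 between 48 and 49 Mb and 4 of 6 between 37 and 38 Mb, and none of the calls in these last 3 stretches remained with the components. The highest shares for Btbd9 were 3 of 6 genes between 22 and 23 Mb and 16 of 38 between 33 and 34 Mb. Next came 3 of 9 between 8 and 9 Mb, beside 5.97% of all genes. With the components 3, 11 and 0 genes passed in these stretches.

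Of 13 tested genes within 1 Mb of Nnt, 6 passed (46.2%, against 54.1% of all genes). With the components 3 passed, beside 0.784% of all genes. Paip1, a regulator of translation at the poly(A) tail that starts 19.6 kb away, rose by 0.035 ± 0.0059 (adjusted p = 4.07e-08) and by 0.025 with the components (adjusted p = 0.013). Gm16263 fell by 0.19 ± 0.038 and by 0.41 with the components (adjusted p = 2.65e-06 and 4.15e-15). Mrps30, a mitochondrial ribosome gene 948 kb away, had a slope of -0.015 in the first fit (adjusted p = 0.369) and rose by 0.050 with the components (adjusted p = 0.0008). Hmgcs1, an early enzyme of cholesterol synthesis, fell by 0.19 ± 0.024 (adjusted p = 1.36e-12) but had a slope of -0.064 with the components (adjusted p = 0.113). Nim1k (-0.12), Zfp131 (-0.078) and 3110070M22Rik (0.12) also passed in the first fit only. Among 1-Mb stretches of chromosome 13 with at least 5 genes tested, several had every gene called in the first fit. The largest held 8 of 8 genes between 48 and 49 Mb, 7 of 7 between 30 and 31 Mb and 7 of 7 between 41 and 42 Mb. In these 3 no gene passed with the components.

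Of 5 genes tested within 1 Mb of Cwc22 none passed in edgeR's quasi-likelihood test, 2 did at an unadjusted p under 0.05, and limma on log2 CPM called 1, Ccdc141 (-0.095 ± 0.024, adjusted p = 0.030). Normal scores of Cwc22 called 2 and the lowest mode alone 3, beside 53.99 and 56.2% of all genes. The fit without Xist and the Y-linked genes called 2, beside 2.39% of all genes. At 1.1% of all genes called in the first fit, none of 5 is near the background. The nearest gene, Zfp385b at 61.5 kb, had a slope of 0.0064 ± 0.034 (adjusted p = 0.955).

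**Figure D4:**
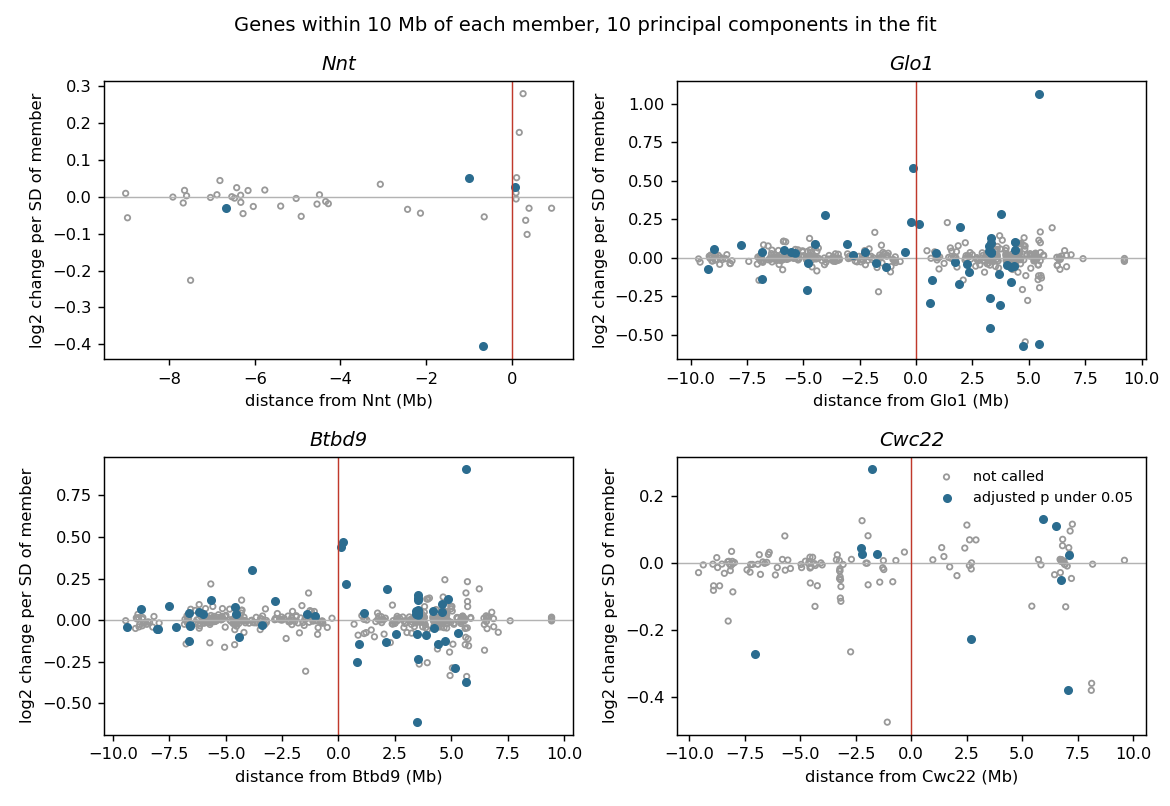
Slope of each gene within 10 Mb of a member (log2 change per SD of the member) against its distance from the member in Mb, from the fit with 10 principal components. Filled points passed at an adjusted p under 0.05, and they gather around Glo1 and Btbd9, while the 5 tested genes within 1 Mb of Cwc22 are all open.

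The genes of chromosome 2 that followed Cwc22 lay farther off. Of 1435 tested genes on the chromosome 27 passed (1.88%), and 12 with the components. Among 1-Mb stretches with at least 5 genes tested the shares were highest between 75 and 76 Mb (5 of 10 genes), between 84 and 85 Mb (5 of 19) and between 85 and 86 Mb (1 of 5). A window laid around Gm13697 after these values were seen held 28 tested genes within 2 Mb, of which 7 passed (25%), and 5 with the components. The same window around Cwc22 itself held 19 tested genes, of which 2 passed (10.5%), and 2 with the components. Between 1 and 4 Mb from Cwc22, 6 of 42 tested genes passed (14.3%), and 5 with the components (11.9%).

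Close to Gm13697, Fam171b at 0.101 Mb rose by 0.11 ± 0.023 per SD of Cwc22 (adjusted p = 0.0015). Tfpi, the inhibitor of tissue factor that starts coagulation, rose by 0.12 ± 0.018 (adjusted p = 6.44e-08) and had levels from 9.27 through 26.003 to 59.6 CPM. Ssrp1, a subunit of the FACT histone chaperone, rose by 0.031 ± 0.0048 (adjusted p = 4.07e-07). Selenoh fell by 0.053 ± 0.012 (adjusted p = 0.0074), as did Calcrl, Rtn4rl2 and Prg2. Between 75 and 76 Mb, Hnrnpa3, an RNA-binding protein of the nucleus, rose by 0.041 ± 0.0081 (adjusted p = 0.00053) and Nfe2l2, the regulator of the antioxidant response, by 0.036 ± 0.0090 (adjusted p = 0.019). Pde11a, in the same stretch and 1.54 Mb from Cwc22, rose by 0.28 ± 0.057 (adjusted p = 0.0014). Each of Fam171b, Tfpi, Ssrp1, Selenoh, Prg2, Hnrnpa3, Nfe2l2 and Pde11a passed in both fits.

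Gm13697 was itself below the filter on low counts. Its expected count ran from 0 through a median of 1.09 to 536.9 per library, with 140 libraries at 10 or more, and all 35 libraries with high Cwc22 were among those 140. Within the 35 its count lay between 43.7 and 536.9, which was 0.0892 to 0.791% of that of Cwc22 in the same library, while the highest count among the other libraries was 254.3. In the fit without the filter it rose by 1.00 ± 0.12 per SD of Cwc22 (adjusted p = 3.87e-11). With 98.42% identity, how reads were divided between the pair depends on the expectation maximisation that made the counts, and this was not tested.

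Genes on other chromosomes followed Cwc22 as well, 1.04% of 16944, of which 160 rose. With the components 17 passed, 15 of them also called in the first fit. Beyond 4 Mb or on other chromosomes, the 5 rising genes with the lowest p at a mean of at least 1 CPM were Gm42900 (chromosome 5), Il1f9 (chromosome 2, 53.7 Mb away), Gm11261 (chromosome 4), Gm42764 (chromosome 5) and Gm15758 (chromosome 8). Gm42900 ranged from 2.55 through 6.30 to 41.4 CPM and rose by 0.47 ± 0.028 (adjusted p = 1.55e-46). Il1f9, which encodes the interleukin 1 family cytokine IL-36 gamma, ranged from 0.0246 through 0.650 to 17.6 CPM and rose by 0.78 ± 0.058 (adjusted p = 6.78e-32). Their slopes barely moved with the components, at 0.44 and 0.76.

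The slopes of Gm11261 (0.35), Gm42764 (0.55) and Gm15758 (0.23) also passed in both fits. Gm19757 on chromosome 6, below a mean of 1 CPM and named after its values were seen, had the steepest slope among the 29 genes called with the components, 1.12 ± 0.044 (adjusted p = 4.79e-85 with them). None of these genes shared a 31-mer with Cwc22 in the reference transcripts. All but Il1f9 are predicted genes.

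The genes listed next were named for their slopes on Cwc22, in fits that held the same 35 libraries with high Cwc22. How many of these are among a gene's own 35 highest libraries therefore describes that slope in another form and is not a further test. For a gene unrelated to Cwc22, about 92.5% of its 35 highest libraries would be expected to lie in the lowest mode. The 35 libraries with high Cwc22 made up 94.3% of those of Gm19757, 88.6% of those of Il1f9, 82.9% for Gm42900, 80% for Gm42764, 65.7% for Gm11261, 28.6% for Gm15758, 31.4% for Tfpi and 34.3% for Fam171b. Since Cwc22 falls into modes, its relations were also taken within each of them, for the 29 genes called with the components (87 pairs, permutation tests). By r, 16 of the 29 passed in the lowest mode, 2 in the middle and 5 in the highest. The regression of all genes within the lowest mode called 56.2%, but it held covariates and was adjusted over all genes tested. The 2 shares are therefore not on like terms, and 16 of 29 is not read as a result about these genes. For the other modes no share over all genes was taken. The 29 genes were picked by slopes in fits that held these same libraries. The permutation p-values within modes do not allow for that choice and are given as a description. Il1f9 rose with Cwc22 within the 20 libraries of the highest mode (r = 0.73, p = 0.00023, rho = 0.78, p = 0.00011, adjusted p = 0.0015 and 0.0008, and r = 0.71 without the 2 farthest libraries). Within the lowest mode its r was -0.048 (adjusted p = 0.517) and its rho -0.051. Within the 15 libraries of the middle mode, Gm19757 had r = 0.89 and rho = 0.83 (permutation p = 6.00e-05 and 0.00032, adjusted p = 0.00065 and 0.0020), and r = 0.78 without the 2 farthest. In the highest mode its r was 0.40 (permutation p = 0.078, adjusted p = 0.206) and in the lowest -6.5e-05 (adjusted p = 0.999). The r of Il1f9 in the middle mode, 0.75 (permutation p = 0.0023, adjusted p = 0.012), fell to 0.33 without the 2 farthest. That of Gm42900 in the highest mode, 0.62 (permutation p = 0.0039, adjusted p = 0.020), fell to 0.31 without the 2 farthest and so rests on them.

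Few genes fell with Cwc22. Of the 16 that did so on other chromosomes, Gm5641 fell by 0.10 ± 0.018 (adjusted p = 7.07e-06) from a median of 72.96 CPM, Serpinb2, a plasminogen activator inhibitor, by 0.21 ± 0.046 (adjusted p = 0.0034), and Padi4, an arginine deiminase of myeloid cells, by 0.16 ± 0.039 (adjusted p = 0.018). With the components Gm5641 passed, and Serpinb2 and Padi4 did not (adjusted p = 0.053 and 0.055).

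**Figure D5:**
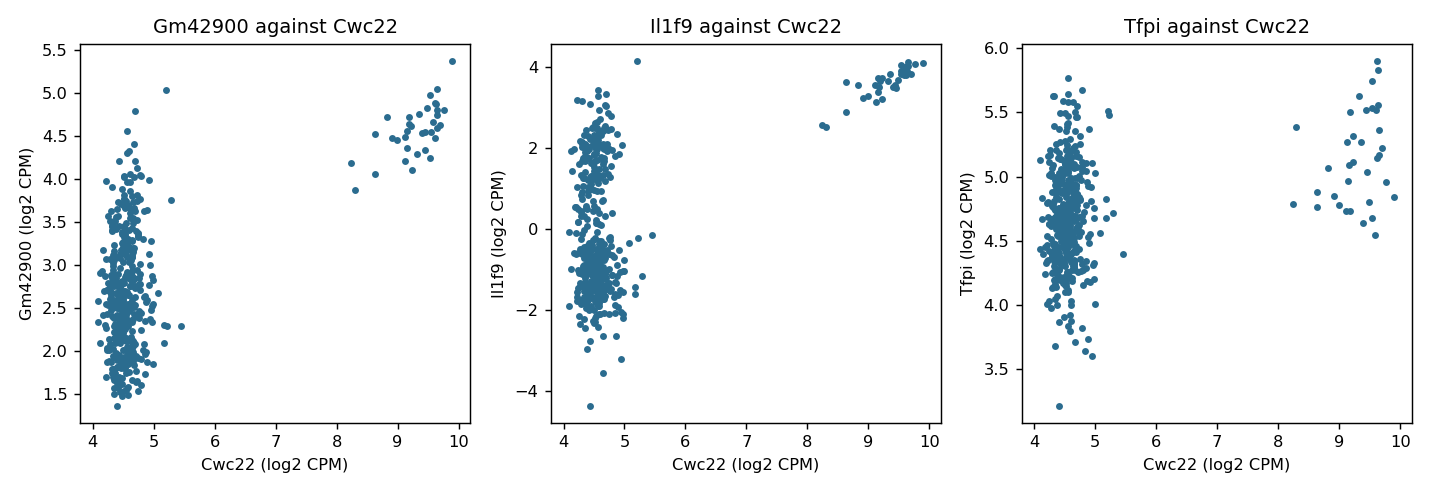
Gm42900, Il1f9 and Tfpi against Cwc22, each in log2 CPM, 1 point per library. Gm42900 and Il1f9 are high in the libraries with high Cwc22 and spread widely in the rest, while Tfpi is shifted upward there with much overlap.

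In the list of 36 genes of the exon junction complex, nonsense-mediated decay and the late spliceosome, the machinery Cwc22 belongs to, 3 rose and none fell, with a median slope of 0.0092 beside 0.00082 over all genes, of which 1.1% were called. The 3 were Smg8 (0.034 ± 0.0074, adjusted p = 0.0036) and Smg6 (0.028 ± 0.0081, adjusted p = 0.046), both of nonsense-mediated decay, and Xab2 (0.025 ± 0.0067, adjusted p = 0.027) of the spliceosome. With the components 0 of 36 passed, beside 0.158% of all genes.

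Within the lowest mode alone, where Cwc22 spans 17.0 to 43.7 CPM, 10329 genes were called, against 1.1% of the genes over all libraries. There Cwc22 fell with the sum of 5 macrophage markers (r = -0.30, rho = -0.33, permutation p = 1e-05 for each, adjusted p = 0.00012 and 0.00017) and rose with that of 5 adipocyte markers (r = 0.16, rho = 0.21, permutation p = 0.00073 and 2.00e-05, adjusted p = 0.0056 and 0.00021). Its r with the sum of the 2 pancreas markers in the table was -0.32 (rho = -0.35, permutation p = 1e-05 for each, adjusted p = 0.00012 and 0.00017). That sum was nearly all Cela1, whose median over all libraries was 9.96 CPM. The other marker, Cpa1, had a median of 0.0388 CPM and was at 0 in 130 libraries. The part of cell makeup in these calls was not tested.

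The genes with the lowest p for Nnt far from it fell into those with a few very high libraries and those with shifts across the whole range. Inha, the inhibin alpha subunit, rose by 0.90 ± 0.062 (adjusted p = 1.04e-34) from a median of 0.545 CPM to a highest value of 489.1 CPM, and Cyp11a1, the first enzyme of steroid synthesis, by 1.14 ± 0.086 (adjusted p = 1.64e-30) from a median of 0.271 CPM to 833 CPM. In 95% of the libraries they stayed below 1.32 and 0.938 CPM. Reck, an inhibitor of matrix metalloproteinases, rose by 0.15 ± 0.013 (adjusted p = 2.04e-24), and Phc1, a Polycomb subunit, by 0.12 ± 0.010 (adjusted p = 1.32e-25).

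Sh3kbp1 fell by 0.17 ± 0.013 (adjusted p = 1.64e-30), Adssl1 by 0.51 ± 0.042 (adjusted p = 1.09e-26) and Trim67 by 0.37 ± 0.030 (adjusted p = 1.87e-26). Sod2, the superoxide dismutase of mitochondria, fell by 0.23 ± 0.019 (adjusted p = 1.09e-26). With the components Phc1 alone among these 8 passed (0.030, adjusted p = 0.036).

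The list of 20 genes of mitochondrial NADPH supply and peroxide removal, the setting in which Nnt acts, had 12 genes that fell with it, 3 that rose and 5 that did not pass, with a median slope of -0.036 beside 0.0061 over all genes, of which 54.1% were called. Besides Sod2, the largest slopes were those of Aldh1l2 (0.14 ± 0.045), a folate enzyme that makes NADPH, of Txnrd2 (-0.13 ± 0.018), the thioredoxin reductase of mitochondria, and of Me3 (-0.12 ± 0.028), a malic enzyme. None of the 20 passed with the components, beside 0.784% of all genes. The summed level of 4 mesothelial markers moved with Nnt (r = 0.33, rho = 0.34, permutation p = 1e-05 for each, adjusted p = 0.00012 and 0.00017, r between 0.22 and 0.44 within blocks of mouse numbers), and its part in these slopes was not tested. This correlation was not adjusted for Xist or the Y-linked genes.

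With the components in the fit the strongest slopes for Nnt on other chromosomes were those of Ctrl, a digestive protease (-0.62, adjusted p = 7.24e-12), and Rnase1, a secreted ribonuclease (-0.69, adjusted p = 1.63e-09), at means of 0.393 and 0.405 CPM. Ndufb3, a subunit of respiratory complex I at a mean of 67.8 CPM, fell by 0.14 in the first fit and 0.048 in the second (adjusted p = 2.37e-22 and 0.00012). Ndufv3, another, fell by 0.12 and 0.048 (adjusted p = 1.02e-08 and 0.00094).

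For Glo1 the far genes with the lowest p that fell were near 0 in most libraries and high in few. They were Bhlha15, a regulator of secretory cells (-0.85 ± 0.083, up to 348.4 CPM), Tgm4, the prostate transglutaminase (-1.48 ± 0.15, up to 1285 CPM), Ceacam10, a gene of the seminal vesicle (-1.80 ± 0.19, up to 17571 CPM) and Teddm1b (-0.89 ± 0.10, up to 393.5 CPM). Nucb2, the nesfatin precursor, fell by 0.27 ± 0.032 (adjusted p = 4.03e-13). The calls of the first 4 were lost with limma on log2 CPM (adjusted p between 0.069 and 0.142) and all 5 with the components. Ceacam10 had a 95th percentile of 11.1 CPM, so a few libraries carry its slope.

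Those that rose with Glo1 were Flywch1 (0.081 ± 0.011, adjusted p = 2.47e-10), Hspa1l (0.37 ± 0.051, adjusted p = 8.71e-10) and Gm8810 on its own chromosome, and Adcy10, the soluble adenylyl cyclase (0.45 ± 0.067, adjusted p = 9.20e-09), and Ybx2, a germ cell RNA-binding protein (0.31 ± 0.048, adjusted p = 2.75e-08), elsewhere. Flywch1 and Gm8810 passed with the components, and Hspa1l, Adcy10 and Ybx2 did not (adjusted p = 0.138, 0.937 and 0.734). These last 3 had a few very high libraries. Their medians were 1.63, 1.17 and 4.52 CPM and their 95th percentiles 3.21, 9.80 and 14.9 CPM. Their highest values were 204.8, 109.6 and 323.1 CPM. Of the 23 genes of glyoxalase, glutathione and dicarbonyl handling, 8 rose with Glo1, 5 fell and 10 did not pass, with a median slope of -0.0028 beside -0.0011 over all genes, of which 37.2% were called. Hagh, the second glyoxalase enzyme, rose by 0.063 ± 0.012 (adjusted p = 1.13e-05), Aldh2, which oxidises reactive aldehydes, by 0.11 ± 0.021 (adjusted p = 7.62e-06) and Akr7a5 by 0.073 ± 0.016. Msr1, the macrophage scavenger receptor, fell by 0.27 ± 0.041 (adjusted p = 1.43e-08).

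None of those 23 passed with the components, beside 0.386% of all genes. Glo1 rose with the adipocyte markers (r = 0.25, rho = 0.21, permutation p = 1e-05 and 3.00e-05, adjusted p = 0.00012 and 0.00028) and fell with the macrophage markers (r = -0.24, rho = -0.22, permutation p = 1e-05 and 2.00e-05, adjusted p = 0.00012 and 0.00021), with r of the latter between -0.38 and -0.14 in the blocks of mouse numbers. Their part in the list was not tested.

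Far from Btbd9, Dnah17, an axonemal dynein gene, rose by 0.44 ± 0.048 (adjusted p = 6.50e-15), and so did Hspa1l (0.37), the sperm-surface gene Adam5 (0.58), Gm3448 (0.55) and Inhba (0.50). Their medians lay between 0.373 and 1.63 CPM and their highest libraries between 178.5 and 580.9 CPM, and all 5 calls were lost with limma on log2 CPM. With the components none of the 5 passed (adjusted p between 0.607 and 0.975), and the slope of Dnah17 turned to -0.0073. Among those that fell, Zfp758 (-0.086 ± 0.016) and Ppt2 (-0.051 ± 0.011), both on chromosome 17, as well as Rps2-ps10 (-0.44 ± 0.073) and Cdhr2 (-0.54 ± 0.11) passed with the components too, whereas Muc13 (-0.56 ± 0.091) did not. With limma the calls of Muc13, Rps2-ps10 and Cdhr2 were lost. Of 23 genes of the Cullin 3 ligase and iron handling, none passed in edgeR's quasi-likelihood test or with limma, and 2 had an unadjusted p under 0.05. The lowest adjusted p in that list was 0.0893. Over all genes 5.97% were called for Btbd9 in the first fit and 0.582% with limma on log2 CPM.

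Likeness was also taken as the rank correlation with each of 18379 genes. The nearest to Glo1 were Btbd9 (rho = 0.70), Gm9874 (0.54), Ndufa7 (0.35), H2-Aa (-0.34) and Gnptg (0.33), all on chromosome 17. For Btbd9 they were Glo1, Gm9874 (0.46), Daxx (0.39), Gm4134 (-0.39) and Dnah8 (0.33), again all on that chromosome. For Nnt they were Sh3kbp1 (-0.52), Phc1 (0.52), Adssl1 (-0.52) and Galc (-0.52), on 3 other chromosomes. For Cwc22, whose ranks are set mostly by the lowest mode, they were 0610030E20Rik (0.50), Trit1 (0.50), Paxbp1 (0.50), Sp1 (0.50) and Traf3 (-0.50), none on chromosome 2.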

How the data were processed

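RNA was sequenced from adipose tissue of 468 mice. Per the study's methods, reads were aligned as single ends to the transcriptomes of the 8 founders, the authors assigned them to genes by expectation maximisation (EMASE and GBRS), and the submitters' processing notes name GRCm38 and DESeq2. The deposited table holds expected counts per gene, of which 66.8% were whole. The authors' second deposited table holds values after the variance stabilising transformation of DESeq2, on a log2 scale, and served as an alternative. Since reads are shared by expectation maximisation, near-identical genes can gain or lose counts to each other.

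The counts were rounded and normalised by TMM (factors 0.580 to 1.37), and genes with at least 10 counts in at least 50% of libraries were kept (18380 of 23180). CPM are on this scale, and log2 CPM used a prior count of 2. Slopes were fitted with the quasi-likelihood test of edgeR 4.0.16 (R 4.3.3), and p-values were adjusted over all genes tested at a threshold of 0.05. Covariates were library number, Xist and the mean of Ddx3y, Eif2s3y, Kdm5d and Uty, since sex is not in the labels, and mouse number in the association fits. The correlations and permutation tests held no covariates, so differences by sex were not taken out of them. limma 3.58.1, DESeq2 1.42.0 and mclust 6.1.1 gave alternatives. Modes were read from a kernel density of 512 points, as valleys at most 0.5 of the lower peak with at least 2% of the libraries on either side. Fits and modes were tested on simulated data. Intervals are at the 95% level and cover counting error only.

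Genes within 1 Mb of a member that passed were named, by rule at most 10 per member with Dnah8 and Glp1r in any case. The 3 with the smallest slopes beside Glo1, and genes that passed with the components only, were named beyond that rule after their values were seen. Beyond 4 Mb or on other chromosomes, the 5 rising and 5 falling genes with the lowest p at a mean of at least 1 CPM were named. The 5 genes of highest absolute rank correlation were also named. So were the 3 stretches of 1 Mb with the highest share of calls, among those with at least 5 genes tested. Up to 4 called genes of each pathway list were named by absolute slope, with Hagh for Glo1 beyond that rule. Of the genes so named for Nnt, 2 are not reported here. The members and lists were chosen with earlier results of these data known. The comparison with Gm13697, the counts of shared 31-mers, the relations within modes and the naming of genes called with the principal components were chosen after seeing the data.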

Additional observations from a re-analysis of the deposited data

How the results depend on the processing

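The fall of Cwc22 with mouse number kept its direction and passed in all 9 alternatives. The slope of Btbd9, which did not pass, turned to -9.85e-05 with ranks of mouse numbers and to -0.00071 without the 10% of libraries with the lowest totals. Leaving out Xist and the Y-linked genes raised the share of genes called for mouse number from 12.3 to 23.9%, for Btbd9 from 5.97 to 36.4% and for Cwc22 from 1.1 to 2.39%, and the called neighbours of Btbd9 to 16 and of Cwc22 to 2. With 10 principal components the shares were 0.784% for Nnt, 0.386% for Glo1, 0.49% for Btbd9 and 0.158% for Cwc22, and the called neighbours 3 for Nnt and 7 for Glo1, while the slopes of Rnf8 with Glo1 (-0.013), Rsph1 with Btbd9 (-0.090) and Dnah17 with Btbd9 (-0.0073) changed sign. With limma on log2 CPM and on the variance-stabilised values, the share was 0.582 and 0.446% for Btbd9, with 4 called neighbours in either, and 0.43 and 0.457% for Cwc22, with 1 called neighbour in either. Without the filter it was 7.23% for Btbd9 (1675 genes against 1097, of more genes tested). Normal scores of Cwc22 gave 53.99% and 2 called neighbours, and its lowest mode alone, an alternative chosen after seeing the data, 56.2% and 3 called neighbours. Beyond the larger number of genes tested without the filter and the fewer libraries in the lowest mode, the cause was not tested.

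A Gaussian mixture found 2 modes for Nnt, 3 for Glo1 and 2 for Btbd9, and 10599 genes with more than 1. The looser valley found 3 for Glo1 and 2357 genes, and the wider bandwidth 2 for Cwc22 and 774 genes. The correlation of Nnt with 3110070M22Rik was -0.051 in the first block of mouse numbers and -0.0024 in the first of library numbers, and that of Ubash3a was 0.013 with Glo1 and 0.065 with Btbd9 in the third block of library numbers. Of the values of single genes and pairs over all alternatives, 78% kept direction and call, and 21.2% kept direction but did not pass. No paired analysis was possible because all libraries form 1 group. With 1 library per mouse, technical and biological spread cannot be told apart.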
